A study of Homo sapiens with 16 samples.

Results

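The retinoid receptor genes RARA, RARB, RARG, RXRA and RXRB and the corepressor gene NCOR1 were followed in U937 cells during treatment with UNBS1450. The genes were picked from earlier results of these same arrays for their place in the retinoid response of myeloid cells, and all spots annotated to their symbols were taken. Of the 6 genes 5 had a spot in the annotation used, with 9 spots among the 28970 spots and 17329 genes that could be read. NCOR1 was not analysed here. U937 is an established human line of a histiocytic lymphoma with monocyte features, and UNBS1450 is a hemi-synthetic cardenolide that blocks the sodium pump. On each of 16 two-colour Agilent arrays, RNA of cells given 20 nM UNBS1450 was hybridised against RNA of a separate control culture of the same time point, with 4 arrays at each of 0, 3, 6 and 9 h. The labels name the agent at 0 h too, whereas the methods give no treatment there, and some label fields write U397 for the cell line. Each set of 4 is labelled as biological replicates. The treated RNA was in Cy5 on the arrays of replicates 1 and 2 but in Cy3 on those of replicates 3 and 4, and the effect of the dye and of the replicate pair cannot be told apart.

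Retinoic acid receptors (RARA, RARB, RARG) bind DNA as heterodimers with retinoid X receptors (RXRA, RXRB, RXRG). Without ligand the pair holds a corepressor complex built on proteins such as NCOR1 and the histone deacetylase HDAC3, and retinoic acid exchanges this complex for coactivators such as NCOA1 and EP300. In myeloid cells the pathway is known for driving maturation, and a fusion of RARA with PML causes acute promyelocytic leukaemia. RARB and CYP26A1, whose product degrades retinoic acid, are classical targets of the receptors themselves.

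The sequence by which the receptors recognise such targets was read from RefSeq promoters of the GRCh38.p14 build (250 bases before and 50 bases after a gene start). A receptor pair contacts 2 hexamers in tandem. The hexamers searched were the consensus AGGTCA, its relative AGTTCA (held by RARB and CYP26A1), the further relative GGGTCA and, as the first hexamer of the RARB repeat, GGTTCA. Any combination of 2 of them in the same direction was taken as a direct repeat, on either strand, with 1, 2 or 5 bases between. Of 35116 promoters, 31 (0.0883%) held a repeat with a gap of 5, 14 (0.0399%) one with a gap of 2 and 46 (0.131%) one with a gap of 1, while a single hexamer lay in 38.6%. A repeat of one gap can share letters with a repeat of another, and each repeat also counts among the single hexamers. All 6 genes have promoters in the table, 14 in all. One RARB promoter held a repeat, and 5 of the 14 held a hexamer. Among 74 genes of the retinoid pathway lists with a promoter, the enzyme gene CYP26A1 also held a gap-5 repeat. Since the search included hexamers of the known RARB and CYP26A1 repeats, both matches were fixed in advance and are no result of the search. No other receptor or pathway promoter searched held a repeat. Both are shown with the 2 hexamers of the repeat in capitals, in the direction of the gene. A single GGGTCA outside the repeat in the RARB stretch is left in small letters.
RARB, chr3:25428163-25428262, plus strand: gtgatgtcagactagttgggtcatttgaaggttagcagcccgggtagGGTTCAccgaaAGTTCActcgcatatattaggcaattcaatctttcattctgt
CYP26A1, chr10:93073761-93073860, plus strand: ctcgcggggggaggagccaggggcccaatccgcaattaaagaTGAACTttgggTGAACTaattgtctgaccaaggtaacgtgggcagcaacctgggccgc
In RARB the repeat lies on the strand of the gene, and read 5′ to 3′ it is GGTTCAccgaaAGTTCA, with its first base at position −53 from the gene start. In CYP26A1 the match lies on the opposite strand, where it reads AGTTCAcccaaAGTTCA, and it begins at position −90 in the direction of the gene. A match of letters is a description of the sequence and not a measured binding site.

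The values used were deposited log2 ratios of the dyes, turned here to treated over control, and such ratios hold no level of expression. The presence of monocyte markers could therefore not be checked by level. Of 10 listed monocyte and macrophage markers 7 were measured, with array medians between −0.020 and 0.012 at 9 h, and of 17 markers of other cell types 14 were measured, with array medians between −0.042 and 0.069. No marker of either list was called at any time, beside 0.0%, 0.0% and 0.75% of all genes at 3, 6 and 9 h. Over all genes the median log2 ratio at 9 h was 0.0023. Across spots, the correlation of turned arrays within a time point was −0.27 to 0.16 for opposite dyes and 0.049 to 0.61 for the same dye, and spots are not independent replicates.

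RARA was the receptor gene with the highest ratio at 9 h, on one of its spots. RARA encodes the main retinoic acid receptor of myeloid cells. Spot 21843 read −0.091, −0.43, 0.11 and 0.10 on the 0 h arrays of replicates 1 to 4. It read 0.013, 0.048, 0.38 and 0.29 at 3 h. At 6 h the 4 arrays gave −0.24, 0.12, 0.040 and 1.02. At 9 h they gave 0.34, 0.093, 0.32 and 1.22. The array of replicate 4 was the highest at 6 and 9 h, and 3 of the 4 arrays at 9 h lay above the highest 0 h array. The mean of the 4 arrays went from −0.076 ± 0.25 (SD) at 0 h through 0.18 ± 0.18 and 0.24 ± 0.54 to 0.49 ± 0.50 at 9 h, the last a 1.41-fold ratio with a standard error of 0.18 from limma. With replicate 4 left out, which also unbalances the dyes here and below, −0.025 remained at 6 h and 0.25 at 9 h. The mean of both RARA spots was 0.25 at 9 h.

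The other RARA spot, 19387, is assigned to the same RefSeq transcript and read differently. Its means over time were −0.11 ± 0.060, 0.054 ± 0.032, −0.088 ± 0.042 and −0.0010 ± 0.045 (SD, n = 4 arrays). At 9 h the arrays of replicates 1 to 4 gave 0.037, 0.0010, 0.023 and −0.065. The ranges of both RARA spots at 9 h did not overlap, since the lowest array of spot 21843 stood at 0.093 and the highest of spot 19387 at 0.037. The array of replicate 4, highest on the first spot, was the lowest on the second. Probe sequences were not used here, so the part of the transcript that each spot reads is unknown. The antisense gene RARA-AS1, with a spot of its own, had a mean of 0.042 ± 0.17 (SD, n = 4 arrays) at 9 h, with arrays between −0.094 and 0.28.

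**Figure D1:**
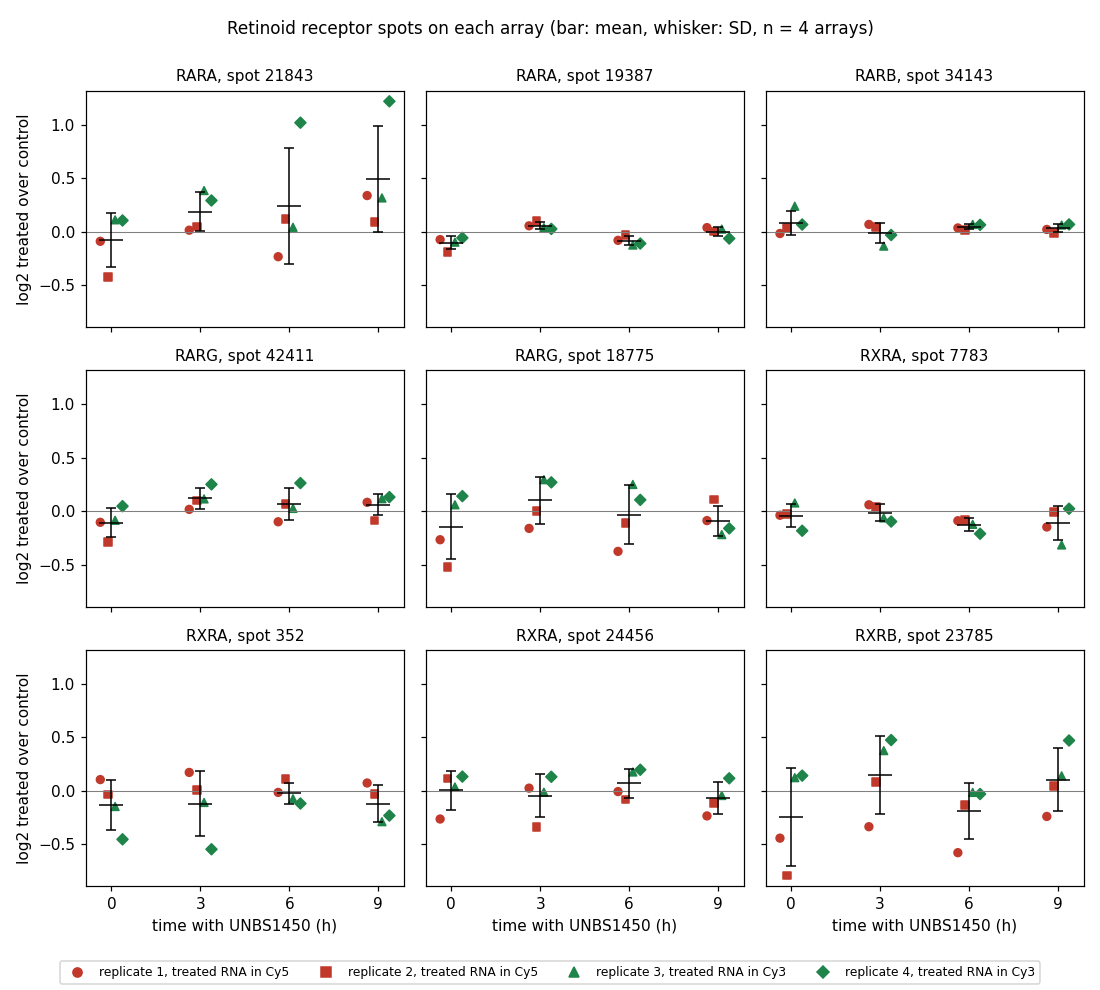
Log2 ratio of treated over control (vertical axis) of each array against time with UNBS1450 in hours, for the 9 spots of 5 receptor genes. Marker shape gives the replicate, colour the dye of the treated RNA, and bars with whiskers the mean and SD of 4 arrays. On RARA spot 21843 replicate 4 stands at 1.02 and 1.22 at 6 and 9 h, while RARB and RARA spot 19387 stay between −0.19 and 0.24 on every array.

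RARB, the gene with the repeat shown above, had ratios near 0 at every time. Its only spot gave −0.018, 0.037, 0.24 and 0.066 for replicates 1 to 4 at 0 h. It gave 0.067, 0.040, −0.14 and −0.032 at 3 h. The 6 h arrays read 0.034, 0.017, 0.067 and 0.063, all above 0, and those of 9 h 0.020, −0.014, 0.061 and 0.067. The 9 h range lay inside that of 0 h. The means were 0.081 ± 0.11, −0.015 ± 0.091, 0.045 ± 0.024 and 0.034 ± 0.038 (SD, n = 4 arrays), with a standard error of 0.047 at each time. At 6 and 9 h these SDs were below the median SD over all spots, which was 0.14 at 6 h and 0.17 at 9 h.

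RARG, the receptor that in mice is known from skin and from blood stem cells, was above 0 on all arrays of 3 h on spot 42411. These arrays read 0.017, 0.10, 0.12 and 0.25, against −0.10, −0.29, −0.085 and 0.047 at 0 h. The time points overlapped only between the lowest 3 h array and the highest 0 h array. The means over time were −0.11 ± 0.14, 0.12 ± 0.097, 0.064 ± 0.15 and 0.061 ± 0.10 (SD, n = 4 arrays), with a standard error of 0.064. At 6 h the arrays lay between −0.099 and 0.26 and at 9 h between −0.087 and 0.13, so that both spanned 0. With replicate 4 left out the 6 h mean was −0.0020. The other RARG spot, 18775, had means of −0.15 ± 0.31, 0.10 ± 0.22, −0.032 ± 0.27 and −0.090 ± 0.14 at 0, 3, 6 and 9 h (SD, n = 4 arrays). On that spot the Cy5 arrays lay below the Cy3 arrays at 0, 3 and 6 h and above them at 9 h, where the orientation means were 0.011 and −0.19.

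RXRA, the main partner of the retinoic acid receptors in myeloid cells, had means below 0 on its main spot throughout. Spot 7783 read −0.089, −0.079, −0.12 and −0.21 for replicates 1 to 4 at 6 h. At 9 h the arrays gave −0.15, −0.0050, −0.32 and 0.023, and at 0 h −0.038, −0.026, 0.077 and −0.18. All 6 h arrays lay below 0, and their range overlapped that of 0 h because of the array of replicate 4 at 0 h. The means were −0.043 ± 0.11, −0.014 ± 0.077, −0.13 ± 0.060 and −0.11 ± 0.16 (SD, n = 4 arrays), with a standard error of 0.058. The other spots of the gene did not show the 6 h value. Spot 352 had a mean of −0.025 ± 0.099 and spot 24456 one of 0.071 ± 0.14 at 6 h (SD, n = 4 arrays), and at 9 h they stood at −0.12 ± 0.17 and −0.068 ± 0.15. On spot 352 both Cy5 arrays lay above both Cy3 arrays at every time, also at 0 h, where the orientation means were 0.035 and −0.30.

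RXRB, a retinoid X receptor found in most tissues, had a wider spread than RARB, the other gene with a single spot. The arrays of replicates 1 to 4 gave −0.44, −0.79, 0.12 and 0.14 at 0 h. They gave −0.34, 0.084, 0.38 and 0.48 at 3 h. At 6 h the spot read −0.58, −0.13, −0.015 and −0.030, and at 9 h −0.24, 0.043, 0.14 and 0.47. Both arrays with treated RNA in Cy5 lay below both with treated RNA in Cy3 at every time, and the mean Cy5 over Cy3 ratio over the 16 arrays was −0.25. The same quantity was −0.23 for RARA spot 21843, 0.15 for RXRA spot 352 and −0.013 for RARB. The means of RXRB were −0.24 ± 0.46, 0.15 ± 0.36, −0.19 ± 0.27 and 0.10 ± 0.29 at 0, 3, 6 and 9 h (SD, n = 4 arrays), with a standard error of 0.16. The ranges of all 4 time points overlapped. Without replicate 4, a Cy3 array whose removal also unbalances the dyes, the 9 h mean was −0.019.

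Ordered by the main spot at 9 h, the means were 0.49 for RARA, 0.10 for RXRB, 0.061 for RARG, 0.034 for RARB and −0.11 for RXRA. Each neighbouring pair in this order overlapped over the arrays. At 0 h the same spots stood at −0.076, −0.24, −0.11, 0.081 and −0.043, where the methods give no treatment. Since arrays of one orientation carry the dye the same way, the 0 h mean of each orientation was subtracted from its 9 h mean. RARA spot 21843 then stood at 0.47 on the Cy5 arrays and 0.66 on the Cy3 arrays, above 0 in both. RXRB gave 0.52 and 0.17, RARG spot 42411 0.19 and 0.14, and RARA spot 19387 0.15 and 0.058. RARB gave −0.0060 and −0.088, and RXRA spot 7783 −0.045 and −0.093. RXRA spot 24456 gave −0.098 and −0.049. Opposite signs were seen on RXRA spot 352, −0.012 and 0.041, and on RARG spot 18775, 0.40 and −0.29. With 2 arrays per orientation these are values with no test, and they rest on the 0 h arrays as much as on those of 9 h.

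**Figure D2:**
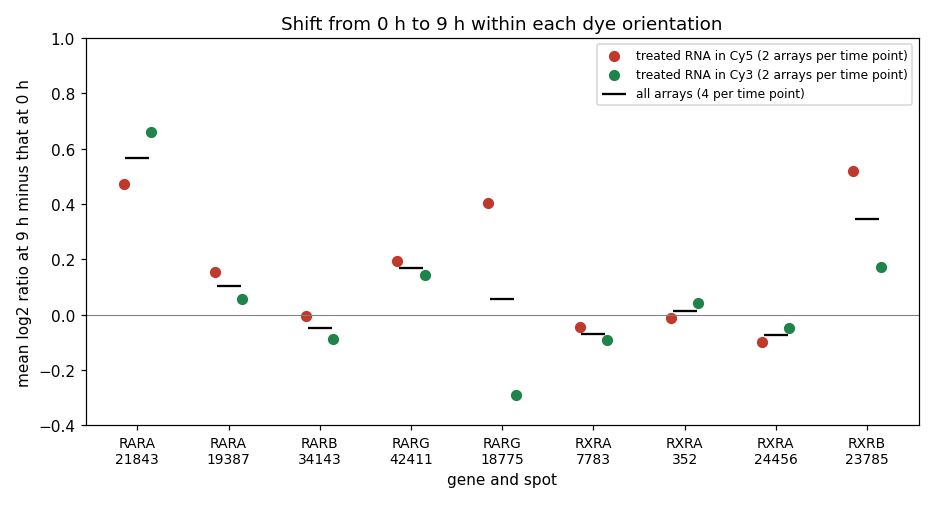
Mean log2 ratio at 9 h minus that at 0 h (vertical axis) for each receptor gene and spot, for arrays with treated RNA in Cy5, in Cy3 (2 arrays per time point each) and for all arrays. RARA spot 21843 is above 0 in both orientations at 0.47 and 0.66, and RARG spot 18775 splits at 0.40 and −0.29.

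None of the 5 receptor genes passed a fold of 1.3 with an adjusted p under 0.05 in limma at 3, 6 or 9 h. Over all 17329 genes the share called was 0.0% at the first of these hours, 0.0% at the second and 0.75% (130 genes) at the third. Without adjustment 57, 126 and 855 genes passed at 3, 6 and 9 h, beside 100 at 0 h, where the methods give no treatment. Robust regression called 5 and 8 genes at 3 and 6 h, beside 2 at 0 h. Of the 9 receptor spots, 1, 3, 4 and 1 at 0, 3, 6 and 9 h had all 4 arrays on one side of 0. Over all 28970 spots these shares were 12.6%, 13.0%, 18.5% and 20.0% in the same order of time. Because the genes were chosen with these contrasts known, nothing is read from the counts.

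The partners and regulators of the receptors were taken from 6 lists of 97 genes by role, of which 77 were measured. At 9 h, 1 of the 77 rose, none fell and 76 did not pass the test, beside 0.75% called over all 17329 genes. At 3 and 6 h 0 of the 77 passed, beside 0.0% of all genes. The median log2 ratio at 9 h was 0.012 with 39 of 77 above 0, beside 0.0023 over all genes. KAT2B, the acetyltransferase PCAF that joins coactivators on the receptors, was the gene that rose. Its mean was 0.44 ± 0.27 (SD over 4 arrays between 0.13 and 0.77) with an adjusted p of 0.0488 from limma. It was not called without any one of the 4 replicates (mean 0.33 without replicate 4), with array weights, with 9 h fitted on its own arrays, with quantile normalization, or when adjusted over 3, 6 and 9 h together or over all spots. Its second spot had a mean of 0.075, and with the mean of both spots it was not called either.

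Among 11 measured receptors that share partners or ligands with the retinoid receptors, none was called and the 9 h median was 0.032. RXRG, the third retinoid X receptor, stood at 0.15 ± 0.20 (SD, n = 4 arrays; limma adjusted p = 0.215) at 9 h, with all arrays between 0.0040 and 0.45. VDR, the vitamin D receptor that pairs with RXR in monocytes, stood at 0.049, with its 10 spots between −0.050 and 0.067, and at 0.19 without replicate 4. NR1H3, the liver X receptor alpha, stood at −0.44 ± 0.80 (SD, n = 4 arrays, adjusted p = 0.269 from limma), and at −0.041 without replicate 4.

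In the corepressor complex 0 of 11 measured genes passed, with a 9 h median of 0.038. HDAC3, its deacetylase, stood at 0.12 ± 0.33 and TBL1XR1, an exchange factor of the complex, at −0.17 ± 0.15 (SD, n = 4 arrays, adjusted p = 0.676 and 0.191 from limma), and HDAC3 at −0.030 without replicate 4. The 8 spots of TBL1XR1 ran from −0.42 to 0.11. Of 8 measured coactivators KAT2B passed and 7 did not, with a median of 0.11. NCOA1 stood at 0.052 ± 0.34 and the acetyltransferase EP300 at −0.21 ± 0.50 (SD, n = 4 arrays), with its 11 spots between −0.22 and 0.11. Without replicate 4 these means were −0.10 for NCOA1 and −0.38 for EP300. On the main EP300 spot the arrays of replicates 1 to 4 read −0.87, −0.0070, −0.26 and 0.30, so replicate 1 was the lowest.

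Of 16 measured genes of retinoid uptake and metabolism none passed at 9 h, with a median of −0.032. CYP26A1, the second gene with the repeat, read between −0.36 and −0.086 on all 4 arrays of 9 h, averaging −0.21 ± 0.13 (SD, n = 4 arrays, limma adjusted p = 0.292). At 0 h all its arrays lay above 0, between 0.017 and 0.15, so that the 0 and 9 h ranges did not overlap. Those of the main PRAME spot, given below, did not overlap either. The share of spots without overlap was not counted over all spots, so nothing is read from this. CRABP2, which carries retinoic acid to the receptors, stood at −0.11 ± 0.14, and DHRS3, a retinal reductase, at 0.23 ± 0.51 (SD, n = 4 arrays, adjusted p = 0.38 and 0.391 from limma). DHRS3 stood at −0.0050 without replicate 4, whose array read 0.94. RDH14, a retinol dehydrogenase named after its value was seen, had the lowest mean of the list at −0.53 ± 0.56 (SD, n = 4 arrays; limma adjusted p = 0.0923), and −0.26 without replicate 4.

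Of 20 measured genes that retinoic acid induces in myeloid cells, none passed at 9 h, 7 were above 0 and the median was −0.043. CD38, an ectoenzyme that retinoic acid induces in leukaemia cells, stood at −0.021 ± 0.17, and TGM2, tissue transglutaminase, at 0.13 ± 0.18 (SD, n = 4 arrays). Without replicate 4 they stood at −0.067 and 0.21. ASB2, a ubiquitin ligase subunit found through its induction by retinoic acid, stood at −0.24 ± 0.20 with all arrays below 0 (SD, n = 4 arrays, adjusted p = 0.128 from limma), and at −0.15 without replicate 4. CCL2, a monocyte chemokine named after its value was seen, stood at −0.62 ± 0.44 (SD, n = 4 arrays, adjusted p = 0.0647 from limma), and −0.41 without replicate 4.

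Of 11 measured modifiers and repressors of the receptors none passed, with a median of −0.015. PML, the fusion partner of RARA, stood at 0.34 ± 0.19 on its main spot with all arrays above 0 (SD, n = 4 arrays, adjusted p = 0.0716 from limma), while its 6 spots ran from −0.14 to 0.34. PRAME, a repressor of RAR signalling, stood at −0.32 ± 0.35 (SD, n = 4 arrays, adjusted p = 0.165 from limma) and at −0.14 without replicate 4, and its other spot stood at 0.31. CDK7, which phosphorylates RARA as part of TFIIH, stood at −0.052 ± 0.21 (SD, n = 4 arrays), and at −0.11 without replicate 4. Its arrays of replicates 1 to 4 read −0.041, −0.355, 0.053 and 0.13, so replicate 2 was the lowest. NSD1, named after its value was seen, stood at −0.31 (adjusted p = 0.0405 from limma) but under the fold threshold of 1.3, and its other spots at −0.029, −0.12 and −0.23.

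**Figure D3:**
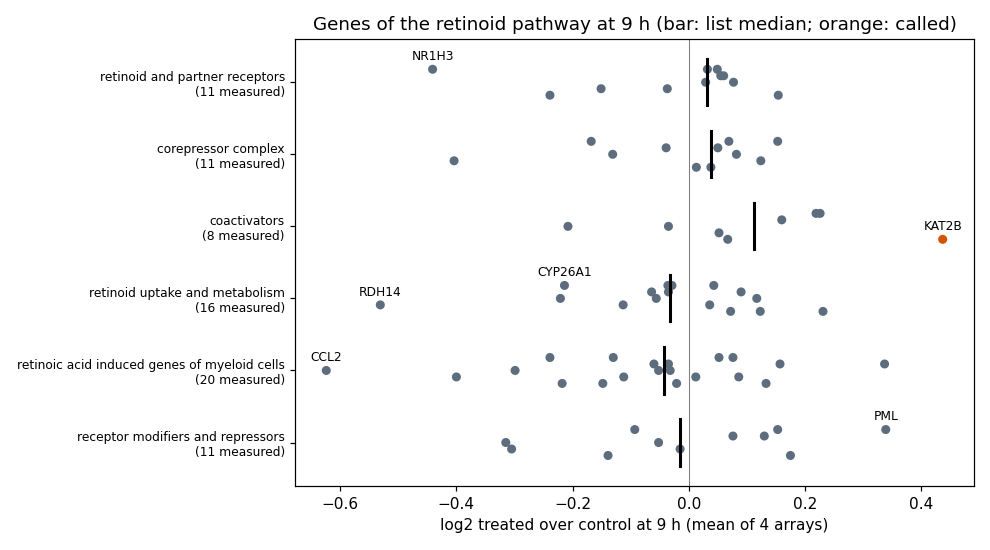
Mean log2 ratio of treated over control at 9 h (horizontal axis, 4 arrays) of the 77 measured genes of 6 retinoid pathway lists, 1 point per gene, with the list median as a bar. KAT2B at 0.44 is the only gene past the thresholds, and the list medians lie between −0.043 and 0.11.

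Genes with the gap-5 repeat in a promoter, RARB and CYP26A1 among them, were also looked at as a set. Of 29 such genes 13 were measured, and 0 of the 13 were called at any time, beside 0.75% of all genes at 9 h. Their 9 h median was −0.018, with 6 of 13 above 0, from −0.29 for PANK2, a pantothenate kinase, to 0.11 for CFLAR, an inhibitor of caspase 8. At 0 h the median was −0.014 with 4 of 13 above 0.

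Genes were ranked by how closely their main spot followed the main spot of each receptor over the 16 arrays. The mean of each dye orientation was removed first. RARA, by spot 21843, was nearest to TMEM101 (r = 0.98) and E2F1 (r = 0.96), a cell cycle transcription factor. On that spot replicate 4 read 1.02 at 6 h and 1.22 at 9 h, and the other RARA spot, 19387, was not used for r. RXRB was nearest to CDK2AP2 (r = 0.97) and MYH9 (r = 0.97), the heavy chain of a nonmuscle myosin. RARG was nearest to EVA1B (r = 0.92) and TFEB (r = 0.86), a transcription factor of lysosomal genes. RARB was nearest to OR6A2 (r = 0.87), an olfactory receptor, and ARSI (r = 0.87), a sulfatase, and RXRA to LCAL1 (r = 0.84) and GTF2A1 (r = 0.84), a subunit of TFIIA. Between the main spots of the receptors, r was 0.63 for RARA and RARG, 0.57 for RARG and RXRB and 0.43 for RARA and RXRB. For the other pairs it was between −0.34 and 0.30. The nearest genes were picked as the highest r among 17329 genes, and all r describe the same 16 arrays, whose spots share the array, its normalization and its labelling.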

How the data were processed

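The authors extracted signals with GenePix Pro, corrected background by normexp, normalized by loess within and Aquantile between arrays with limma (named in the submitters' processing notes), and deposited log2 ratios of Cy5 over Cy3. Array medians as deposited lay between −0.00711 and 0.00328, and no further centring is named in the sources. The table lists 45220 spots, 40563 of them valued on all 16 arrays and 4657 empty. Spots without a symbol (11507) or with several (86) were left out. Gene symbols come from the platform annotation. Spot intensities and weights were not used here, so detection is unknown and the number of arrays limits the precision.

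Ratios of replicates 3 and 4 were sign-turned to treated over control. One linear model took the 4 time points as coefficients over all 16 arrays. It was fitted with limma 3.58.1 in R 4.3.3 (lmFit and then eBayes, with 12 residual and 3.29 prior degrees of freedom). The code was run on simulated independent arrays with planted changes larger than any receptor mean. That run does not test the calls on these arrays, which correlate within a dye. Adjusted p-values are Benjamini-Hochberg values over all single-gene spots per time point. Called genes had a fold of 1.3 or more and an adjusted p below 0.05 on their spot of highest F over 3, 6 and 9 h, which favours values of these hours over those of 0 h. The receptor genes were part of this fit and their calls are counted, but as they were chosen with results known their values are given as descriptions, with no p. The members and lists were chosen with earlier results of these data known. Named genes are the members, list genes marked for their role, list genes called, and the 2 genes correlating best with each member. Outside this rule, RDH14, CCL2 and NSD1 were named after their values were seen. PANK2 and CFLAR were named as the extremes of the repeat set, and HDAC4 and PRAM1 as called under an alternative setting. RARA-AS1 was named as the antisense gene of RARA. Pearson r and figures used Python 3.11.15, numpy 2.4.6, pandas 2.3.3 and matplotlib 3.10.9. Promoters are RefSeq, GRCh38.p14. Alternatives were a dye coefficient, a replicate block, robust regression, array weights, own arrays, centring, quantile normalization, mean of spots, left-out replicates, no fold threshold, joint adjustment and all spots.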

Additional observations from a re-analysis of the deposited data

Results flagged for a closer look

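Within 104 groups of 4 arrays examined for the receptor spots and the genes named for their role, 4 had a single array whose gap to the nearest of the others, as a share of the range, was above Dixon's 95% critical value, and chance alone gives about 1 group in 20. These were NR1H3 at 9 h, where replicate 4 read −1.64, HDAC3 at 3 h, where replicate 1 read −0.35, CRABP2 at 9 h, where replicate 3 read 0.094, and PRAME at 0 h, where replicate 4 read 0.023. RARA spot 21843, whose replicate 4 was the highest at 6 and 9 h, stayed below that value with gaps of 0.72 and 0.78 of the range.

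Among the same receptor spots and genes, there were 4 cases with time points on opposite sides of 0. In each, every array of one time point lay on one side and every array of another on the opposite side. Other list genes, which were not examined for this, had such cases too. The difference was not tested. Over all 28970 spots, 12.6%, 13.0%, 18.5% and 20.0% had all arrays on one side at 0, 3, 6 and 9 h. The share with opposite sides at different times was not counted over all spots, so nothing is read from the 4 cases. RARA spot 19387 lay below 0 at 0 h and above it at 3 h, a difference of 0.16 between the means. The same spot lay below 0 again at 6 h, a difference of −0.14 from 3 h. CYP26A1 went from above 0 at 0 h to below 0 at 9 h, a difference of −0.27, and PRAME likewise, with −0.49.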

How the results depend on the processing

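With the dye coefficient or the replicate block the receptor means equal those stated, by construction of the balanced design. Over the 9 other settings that give a mean, the 9 h values ran from 0.25 (mean of spots, and also without replicate 4) to 0.62 for RARA, −0.019 to 0.22 for RXRB, −0.014 to 0.11 for RARG, 0.017 to 0.049 for RARB and −0.16 to −0.043 for RXRA. RXRB was below 0 at 9 h without replicate 4 and, at −0.012, with array weights, and RARG with the mean of its spots. RXRA at 6 h became −0.026 with the mean of its spots instead of −0.13. Over all 4 time points the sign turned in 11 of 180 recomputed means, among them RARA at 6 h (−0.025) without replicate 4. At 3 and 6 h, 5 and 8 genes were called by robust regression, where the stated fit called none. At 0 h robust regression called 2 genes. At 9 h the 130 genes and the 1 retinoid pathway gene became 520 and 3 (CCL2, KAT2B, RDH14) with a dye coefficient for each spot, 313 and 3 (CCL2, HDAC4, KAT2B) with robust regression, 213 and 2 (KAT2B, NSD1) with no fold threshold, 71 and 0 with quantile normalization, and 65 and 0 when all spots with a value were adjusted together. They became 0 and 0 with array weights, with each time point on its own arrays, and when adjusted over 3, 6 and 9 h together. With the mean of the spots of a gene the pathway count was 0 and the genes called were 92. Leaving out 1 replicate, which also unbalances the dyes, gave 0 to 61 genes (0, 3, 0 and 61 without replicate 1, 2, 3 and 4) and 0 to 0 pathway genes.

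With a replicate block 699 genes were called at 9 h, 4 of them on the pathway lists (CCL2, KAT2B, PRAM1, RDH14), and RARA was called only in this setting. The numbers were not taken to pair the samples. After removal of the dye means, 5 of 16 arrays were closest, among arrays of other times, to one of their own number. The count due to chance was not computed. Deviations of arrays with one number correlated between 0.06 and 0.66, and between −0.37 and 0.49 after removal of the dye means. Correlations between different numbers were not set beside these, so whether the numbers pair the samples was not settled. The 4 arrays per time point limit the precision, and signal over background was not used here.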
